A study of Mus musculus with 4 samples.

Results

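The 10 genes described here encode molecules through which regulatory T cells (Tregs) restrain other immune cells or help tissue repair: Il10, Tgfb1, Ebi3, Fgl2, Lgals1, Areg, Klrg1, Gzma, Gzmb and Prf1. They were chosen by name, and all 10 were found among the 24452 genes listed in the deposited table. Liver Tregs of young mice were sequenced as 2 RNA libraries from each genotype, namely Altre-WT (wild type below) and Altre-KO (knockout below). Altre is a long non-coding RNA of Tregs. Its own level was not analysed here, so the genotype labels were not checked against it. The labels give no treatment, strain, sex or age in weeks, and do not say how the knockout was made, how the cells were isolated or whether the libraries came from separate mice. P-values therefore rest only on the spread between these libraries, taken largely from the trend over all genes, and that spread may be technical.

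Tregs act on their surroundings by several routes. Interleukin-10 and TGF-beta1 are secreted cytokines that damp the activity of other immune cells, EBI3 is a chain shared by interleukin-35 and interleukin-27, and FGL2 and galectin-1 are secreted proteins that inhibit dendritic cells and effector T cells. Amphiregulin is an EGF-family growth factor by which tissue Tregs support epithelial repair, KLRG1 is an inhibitory receptor found on terminally differentiated effector Tregs, and granzymes with perforin form the cytolytic granule pathway that Tregs share with natural killer (NK) cells and CD8 T cells.

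Gene levels are given in CPM, reads on listed genes scaled to one common total per library. Estimated reads on listed genes ran from 1828772 to 3266132 per library, so 1 read was worth 0.306 to 0.547 CPM. The share of a library's reads that fell on listed genes was 32.8% in knockout replicate 1 and 18.8% to 21.5% elsewhere. The 8 Treg markers examined summed to between 3245 and 3489 CPM, with Cd4 at 527 to 547 CPM and Foxp3 at 79.5 CPM in knockout replicate 1 and 140.5 to 162 CPM in the others. Of the markers of other cells, Cd8a lay at or below 0.42 CPM but Cd8b1 at 4.66 to 8.83 CPM. The hepatocyte genes Alb, Ttr and Fgb were listed at 0 in all 4 libraries, while the hepatocyte marker Trf was at 25.2 to 44.7 CPM. In bulk RNA, fewer cells of a type and less RNA per cell cannot be told apart.

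No effector gene passed the test between genotypes. Of the 10 genes, 9 reached the level needed for testing, at least 4.22 CPM (10 estimated reads at the median depth) in at least 2 libraries, and 0 of the 9 had a limma adjusted p under 0.05. At an unadjusted p under 0.05 there was 1, Gzma, beside 3.66% of all tested genes. By limma-voom 0 were called as well, with 1 at an unadjusted p under 0.05, beside 403 of all tested genes. Gzma was tested only through its knockout libraries, so the direction of its difference was built in. Among all 10486 tested genes 0.0381% passed. Mean levels were lower in knockout for 6 of the 10 genes and higher for 4. The tested effector genes had a median log2 fold change (knockout minus wild type, on log2(CPM + 1)) of -0.03, beside -0.01 for all tested genes. That scale understates the change of low genes.

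For 8 of the 10 genes, the gap between the libraries of a genotype was larger than the gap between the genotype means. The exceptions were Gzma and Klrg1. Values of the genotypes did not overlap for 3 of the 9 tested genes, with Tgfb1 and Klrg1 lower and Gzma higher in knockout. This share is close to the background, since 30.8% of all tested genes did not overlap (14.7% higher and 16.1% lower in knockout). Reads were few: 4 genes (Ebi3, Areg, Gzma and Gzmb) had at most 20 estimated reads in any library, while Lgals1, the most deeply read of the 10, had 895 over the 4 libraries.

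**Figure D1:**
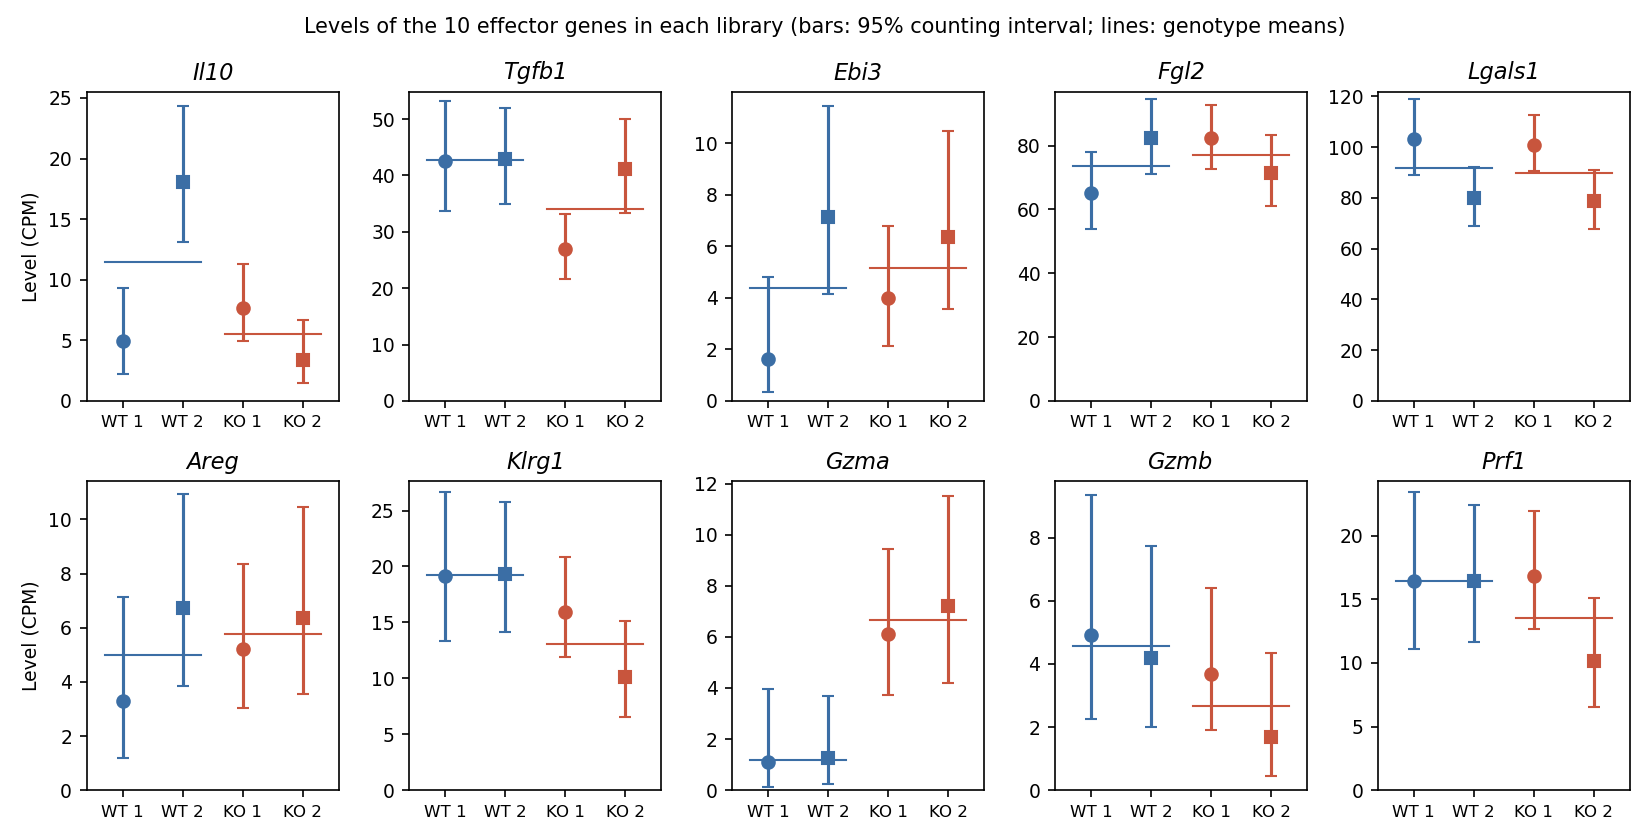
Level of each of the 10 effector genes (vertical axes, CPM, from 0) in wild-type (WT, blue) and knockout (KO, red) libraries 1 and 2. Points are single libraries, vertical bars the 95% counting interval of that library's estimated reads and horizontal lines the genotype means. Gzma, tested only through its knockout libraries, lies at 1.09 and 1.26 CPM in wild type, against 6.12 and 7.20 CPM in knockout. For Fgl2, Lgals1, Ebi3, Areg, Il10 and Prf1 the genotypes overlap.

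Compared per length (CPM per kb of exon), which allows levels of different genes to be set side by side, Lgals1 stood highest at 100.5 ± 14.7 CPM per kb (SD, n = 4 libraries). Fgl2 followed at 19.9 ± 2.26 CPM per kb, and its range of 17.2 to 21.8 lay wholly below that of Lgals1 (87.2 to 114.5) and, with this length, wholly above that of every other gene of the 10. Next, by the mean over all 4 libraries, came Klrg1 (mean 11.4 CPM per kb), Tgfb1 (7.61), Il10 (6.50), Prf1 (5.79), Areg (4.44), Ebi3 (4.14), Gzma (3.89) and Gzmb (2.52). For Gzma this mean lies between the genotypes, at 1.08 and 1.25 CPM per kb in wild type, against 6.08 and 7.16 in knockout. From Klrg1 downwards, the range over libraries of each gene overlapped that of the next, so those neighbours are not separated beyond their spread. The place of Tgfb1 depended on the length used: over its longest coding transcript of 2175 bases, in place of 5042 bases of all annotated exons, its mean was 17.7 CPM per kb (range 12.4 to 19.7), above Klrg1 and overlapping Fgl2. No other gene changed its place apart from Klrg1, which moved down accordingly.

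**Figure D2:**
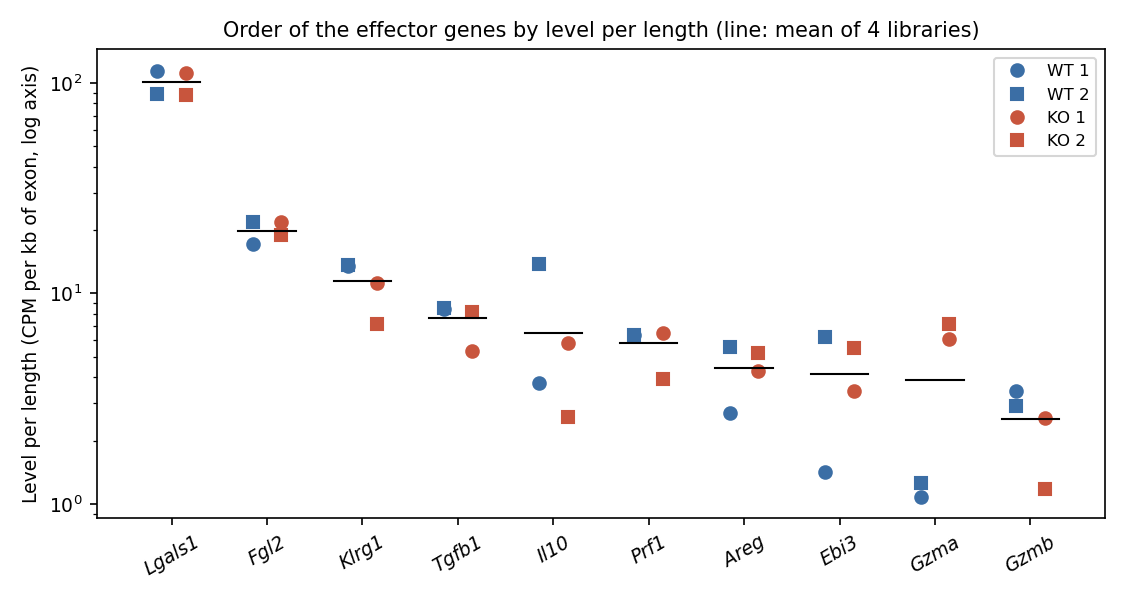
Level per length (vertical axis, CPM per kb of exon, log axis) of the 10 effector genes, ordered by their mean over 4 libraries (black lines), with wild-type libraries in blue and knockout libraries in red. Lgals1 (87.2 to 114.5) and Fgl2 (17.2 to 21.8) stand apart from the other genes, while the lower 8 overlap with their neighbours; Gzma is the gene whose wild-type points lie well below its knockout points.

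Il10 encodes interleukin-10 and lies on chromosome 1 (131019845 to 131024974, GRCm38 with GENCODE M21, as for all positions given here). It was at 4.92 and 18.1 CPM in wild type, against 7.65 and 3.39 CPM in knockout. Wild-type replicate 2 was the single high library, 3.67-fold above wild-type replicate 1, and the genotypes overlapped. The reads behind these values were 9 and 43 in wild type and 25 and 8 in knockout. Its log2 fold change was -0.79 (SE 0.57, 95% interval -1.97 to 0.40, limma adjusted p = 0.999). Without wild-type replicate 2 it was 0.058, so the sign rested on that library.

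The 12 genes listed for interleukin-10 induction and response, the transcription factors that drive Il10 and the receptor chains and kinases that read the cytokine, were all tested. Each list here includes the effector genes it is about, and 5466 of all 10486 tested genes had a log2 fold change below 0. None of the 12 genes passed in either direction by limma, and 0 had an unadjusted p under 0.05. Their median log2 fold change was -0.06, with 10 values below 0. Those with the smallest p were Maf, a transcription factor that activates Il10 (log2 fold change -0.30), the receptor-associated kinase gene Jak1 (-0.18) and the basic leucine zipper factor gene Nfil3 (-0.26). Il10ra, the ligand-binding receptor chain, was at 149 and 179 CPM in wild type, against 156 and 166 CPM in knockout.

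Tgfb1, on chromosome 7 (25687002 to 25705077), encodes TGF-beta1, which is secreted in a latent form. Its levels were 42.7 and 42.9 CPM in wild type, against 26.9 and 41.1 CPM in knockout. Knockout replicate 1 alone was low, and knockout replicate 2 lay 1.58 CPM below the lower wild-type library. The log2 fold change was -0.35 (SE 0.27, 95% interval -0.91 to 0.20, limma adjusted p = 0.999). It was -0.057 without knockout replicate 1, the library that also had the lowest Foxp3.

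Of the 13 genes listed for production and activation of TGF-beta1, 6 were tested, none passed by limma, 0 had an unadjusted p under 0.05, and all 6 values lay below 0 (median log2 fold change -0.19). Lrrc32 encodes GARP, which tethers latent TGF-beta1 to the Treg surface, and was at 200 and 160.2 CPM in wild type, against 128 and 160.5 CPM in knockout. Furin, the protease gene whose product cleaves the precursor, was at 28.4 and 35.3 CPM against 20.5 and 28.8 CPM. The integrin chain gene Itgav had a log2 fold change of -0.06. For Lrrc32 and Furin, as for Tgfb1, knockout replicate 1 was the lowest library. The other isoform genes, Tgfb2 and Tgfb3, did not exceed 4.20 CPM in any library and were not tested.

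Ebi3, on chromosome 17 (55952640 to 55957022), was at 1.64 and 7.15 CPM in wild type, against 3.98 and 6.35 CPM in knockout. The lowest and the highest library were both wild type, so the knockout values fell between them. The log2 fold change was 0.38 (SE 0.65, 95% interval -0.95 to 1.72, limma adjusted p = 0.999), and it was -0.43 without wild-type replicate 1, where Ebi3 had 3 reads. An antisense gene, Gm16712, shares 270 exonic bases with Ebi3 and was at 0.92 to 2.52 CPM. Whether the counting used strand is not given in the sources used here, so reads of the pair cannot be told apart.

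Il12a, which encodes the p35 chain of interleukin-35, and Il27, which encodes the p28 chain of interleukin-27, were listed at 0 in all 4 libraries, as was Il12b. The signalling receptor gene Il6st was in contrast at 549.5 and 533 CPM in wild type, against 481 and 516 CPM in knockout. Of the 11 genes in the interleukin-35 and interleukin-12 family list, 7 were tested, none passed by limma and 0 had an unadjusted p under 0.05 (median log2 fold change -0.10, 5 of 7 below 0). Il12rb2, Il6st and Il27ra, the receptor genes with the smallest p, had log2 fold changes of -0.59, -0.12 and -0.12.

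Fgl2 and Lgals1 were the best-measured of the 10 genes, and their intervals were the narrowest. Fgl2, on chromosome 5 (21372642 to 21378374), was at 65.1 and 82.4 CPM in wild type, against 82.4 and 71.6 CPM in knockout. The genotypes overlapped, and its log2 fold change was 0.07 (SE 0.21, 95% interval -0.36 to 0.50, limma adjusted p = 0.999). Lgals1, which encodes galectin-1 and lies on chromosome 15 (78926725 to 78930465), was at 103 and 79.9 CPM in wild type, against 101 and 78.8 CPM in knockout. In both genotypes replicate 1 was the higher library, by 1.29-fold in wild type and 1.28-fold in knockout. Its log2 fold change was -0.03 (SE 0.20, 95% interval -0.45 to 0.39, limma adjusted p = 0.999). The signs of Fgl2 and Lgals1 changed when single libraries were left out, and that of Lgals1 also with median-of-ratios size factors (0.0038).

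Macrophages and monocytes also express Fgl2 and Lgals1. The 10 Kupffer cell and macrophage markers summed to 114 and 159.7 CPM in wild type, against 149 and 118 CPM in knockout, with Vsig4 and Marco listed at 0 throughout. The 8 monocyte and neutrophil markers, led by Lyz2, summed to 150.4 and 220.3 CPM in wild type, against 243 and 108 CPM in knockout. Both sums were higher in wild-type replicate 2 and knockout replicate 1, the pair of libraries in which Fgl2 was higher. Lgals1 followed the sums in knockout but not in wild type, where it was 103 CPM in replicate 1 and 79.9 CPM in replicate 2. The part of such cells in the levels of Fgl2 and Lgals1 was not tested. In the list of fibrinogen-like proteins, galectins and their receptors, 10 of 13 genes were tested, none passed by limma and 0 had an unadjusted p under 0.05 (median log2 fold change -0.02). The smallest p belonged to Lgals4 (log2 fold change 0.79, from 2.73 and 7.15 CPM to 10.6 and 6.77 CPM), Lgals8 (0.28) and Lgals9 (-0.31).

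Areg, on chromosome 5 (91139599 to 91148432), was low in every library, at 3.28 and 6.73 CPM in wild type, against 5.21 and 6.35 CPM in knockout, from 6 to 17 reads. Knockout values lay between the wild-type ones. The log2 fold change was 0.23 (SE 0.57, 95% interval -0.95 to 1.41, limma adjusted p = 0.999), and -0.19 without wild-type replicate 1. Basophils and mast cells also make amphiregulin. Their 6 markers summed to 12.6 and 23.5 CPM in wild type, against 19.3 and 21.6 CPM in knockout, so wild-type replicate 1 was lowest in both the marker sum and Areg. The part of those cells in Areg was not tested.

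The bases before the start of Areg are shown because they hold a full cAMP response element (CRE), the site of CREB-family factors. Sequences are from RefSeq (GRCm38.p6), which had entries for 7 of the 10 genes, and run 5′ to 3′ on the gene's strand over the 250 bases before the annotated start. Capitals mark a match on either strand to the CRE (TGACGTCA), the AP-1 site (TGANTCA) or a T-box site (GGTGTGA). None of these motifs contains another. In 250 bases before all 32817 annotated starts, 1.55% held the CRE, 6.75% the AP-1 site and 3.33% the T-box site. A match is a description of the letters only. Of the 7 promoters, 3 held a match: Areg the CRE from 61 bases before the start, Fgl2 an AP-1 site from 16 bases before it and Gzmb an AP-1 site from 58 bases before it. The window of Fgl2 runs past the GENCODE start of the gene given above, so by that annotation its AP-1 match lies within the gene.
Areg, chr5:91139349-91139598, plus strand: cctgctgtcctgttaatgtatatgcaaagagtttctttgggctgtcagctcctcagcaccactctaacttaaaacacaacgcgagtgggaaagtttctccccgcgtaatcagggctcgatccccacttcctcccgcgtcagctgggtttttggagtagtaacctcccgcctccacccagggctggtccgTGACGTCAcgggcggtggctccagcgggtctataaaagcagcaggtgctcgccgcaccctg
Fgl2, chr5:21372423-21372672, plus strand: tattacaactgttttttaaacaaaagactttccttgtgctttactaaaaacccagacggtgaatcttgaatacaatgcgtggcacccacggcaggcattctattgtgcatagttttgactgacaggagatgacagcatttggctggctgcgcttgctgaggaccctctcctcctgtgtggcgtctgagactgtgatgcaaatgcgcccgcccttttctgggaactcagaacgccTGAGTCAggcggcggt

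The amphiregulin list, which holds the EGF-family ligands and the proteins that release them from the cell surface, had 4 of 12 genes tested. None passed by limma and 0 had an unadjusted p under 0.05 (median log2 fold change -0.02). Areg was the only ligand of the list to reach the level for testing; Ereg, Hbegf, Tgfa, Btc, Epgn and Egf stayed at or below 3.28 CPM. Adam17 encodes the protease that sheds amphiregulin and was at 110 and 129 CPM in wild type, against 118 and 118 CPM in knockout. Rhbdf2, whose product brings ADAM17 to the surface, was at 18.1 and 15.6 CPM against 11.02 and 12.7 CPM (log2 fold change -0.47, 95% interval -1.26 to 0.32). The related protease gene Adam10 had a log2 fold change of -0.04. Egfr, the amphiregulin receptor gene, was listed at 0 in all 4 libraries.

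Klrg1, on the minus strand of chromosome 6 (122270596 to 122282882), was at 19.1 and 19.3 CPM in wild type, against 15.9 and 10.2 CPM in knockout. Both knockout libraries lay below both wild-type libraries, with knockout replicate 2 the lowest. The mean was 1.48-fold higher in wild type, but the log2 fold change of -0.56 (SE 0.37, 95% interval -1.33 to 0.21) did not pass (limma adjusted p = 0.999). It was -0.26 without knockout replicate 2 and -0.86 without knockout replicate 1.

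Among the 12 genes listed with Klrg1, its cadherin ligands, the phosphatases that carry its signal and factors of terminal effector cells, 11 were tested. None passed by limma and 0 had an unadjusted p under 0.05 (8 values below 0, median log2 fold change -0.24). Itgae, the integrin gene of tissue-resident T cells, was at 138 and 119 CPM in wild type, against 109 and 98.7 CPM in knockout. Inpp5d encodes the inositol phosphatase SHIP-1 and was at 309 and 317 CPM against 262 and 268 CPM. Bach2, a repressor that holds back effector differentiation, was at 74.4 and 69.8 CPM against 40.1 and 76.1 CPM, low in knockout replicate 1 alone. The genotypes did not overlap for 4 of the 11 tested genes (Klrg1, Itgae, Inpp5d and Tbx21), beside 30.8% of all tested genes.

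None of the granule genes Gzma, Gzmb and Prf1 passed the test, and differences between them were not tested. Gzma encodes granzyme A, a serine protease of cytolytic granules, and lies on the minus strand of chromosome 13 (113093825 to 113100981). It was at 1.09 and 1.26 CPM in wild type, from 2 and 3 reads, and at 6.12 and 7.20 CPM in knockout, from 20 and 17 reads. The point values of the genotypes did not overlap. Wild-type libraries averaged 1.18 ± 0.12 CPM and knockout libraries 6.66 ± 0.76 CPM (SD, n = 2). With 2 and 3 reads, the small wild-type SD does not show close replication. The counting intervals of the wild-type libraries were wide, at 0.13 to 3.95 CPM and 0.26 to 3.69 CPM. Those of the knockout libraries were 3.74 to 9.46 CPM and 4.19 to 11.5 CPM.

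Summed over libraries, 5 reads in wild type against 37 in knockout gave a ratio of 5.53 after scaling to the reads on listed genes (exact 95% interval 2.17 to 18.03). This interval covers counting error of these libraries only, not the spread between them. By counting error alone, the intervals of Il10 (ratio 0.475, 0.297 to 0.748), Tgfb1 (0.768, 0.622 to 0.949) and Klrg1 (0.702, 0.506 to 0.971) also excluded 1. In the fit over all genes the log2 fold change was 1.81 (SE 0.67, 95% interval 0.44 to 3.19), with an unadjusted p of 0.0122 and a limma adjusted p of 0.999. An unadjusted p under 0.05 was found for 3.66% of all tested genes. Gzma reached the level for testing only through its knockout libraries, so a difference of this direction was built into its being tested. Leaving out each library in turn kept the log2 fold change between 1.71 and 1.92. Its size depended on the pseudocount, at 1.04 with 4 CPM and 2.41 with 0.1 CPM, and the adjusted p lay between 0.650 and 1 over 11 alternatives.

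Gzmb encodes granzyme B and lies on the minus strand of chromosome 14 (56258838 to 56262260). It was at 4.92 and 4.20 CPM in wild type, against 3.67 and 1.69 CPM in knockout, from 9, 10, 12 and 4 reads. It was the effector gene that missed the level for testing, with 1 library above 4.22 CPM and the next at 4.20 CPM. Both knockout libraries were below both wild-type libraries, but the ratio of summed reads, 0.630, had an exact 95% interval of 0.303 to 1.29. With no level needed for testing, its log2 fold change was -0.65 (SE 0.71, limma adjusted p = 0.925).

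By the point values per length, Gzmb exceeded Gzma in wild type and Gzma, tested only through its knockout libraries, exceeded Gzmb in knockout. Gzma was at 0.316 and 0.428 times the level of Gzmb in the wild-type libraries and at 2.38 and 6.08 times in the knockout libraries, on CPM per kb of exon. The wild-type ratios rest on 2 and 3 reads of Gzma, and knockout replicate 2, with the highest ratio, had 4 reads of Gzmb. In both wild-type libraries and in knockout replicate 1, the counting intervals of Gzma and Gzmb overlapped. In wild-type replicate 1 they were 0.13 to 3.95 CPM for Gzma and 2.25 to 9.34 CPM for Gzmb. With 2 libraries against 2, an exact 2-sided permutation test cannot go below p = 0.333, so none was run on this ratio.

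The bases before the starts of both granzyme genes are shown so that these related genes can be compared. With the motifs and capitals as above, Gzmb held an AP-1 site and Gzma no match. The RefSeq start of Gzmb lies upstream of the end of the GENCODE gene model.
Gzma, chr13:113100982-113101231, minus strand: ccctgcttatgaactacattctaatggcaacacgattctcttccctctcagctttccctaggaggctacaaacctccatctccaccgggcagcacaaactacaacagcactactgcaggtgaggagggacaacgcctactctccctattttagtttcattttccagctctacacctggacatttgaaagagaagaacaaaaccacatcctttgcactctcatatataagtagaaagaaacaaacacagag
Gzmb, chr14:56262335-56262584, minus strand: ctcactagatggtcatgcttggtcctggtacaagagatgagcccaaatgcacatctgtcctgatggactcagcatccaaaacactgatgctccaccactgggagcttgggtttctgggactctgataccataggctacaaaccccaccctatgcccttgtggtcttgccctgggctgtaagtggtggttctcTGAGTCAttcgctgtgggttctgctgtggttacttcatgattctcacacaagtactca

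Prf1, on chromosome 10 (61297833 to 61304680), encodes perforin, the pore-forming protein that lets granzymes enter target cells. It was at 16.4 and 16.4 CPM in wild type, against 16.8 and 10.2 CPM in knockout. Knockout replicate 1 was the highest library and knockout replicate 2 the lowest, so the genotypes overlapped. The log2 fold change was -0.30 (SE 0.39, 95% interval -1.10 to 0.50, limma adjusted p = 0.999), and 0.036 without knockout replicate 2. That library was also the lowest for Gzmb, Klrg1, Il10 and Lgals1, but the highest for Gzma.

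NK cells, group 1 innate lymphoid cells (ILC1) and CD8 T cells of the liver carry Gzma, Gzmb, Prf1 and Klrg1 as well. The 12 NK cell and ILC1 markers, none at 0 in all libraries, summed to 39.2 and 29.8 CPM in wild type, against 38.3 and 37.3 CPM in knockout. The sums of the genotypes overlapped, while single markers differed in pattern. Tyrobp, the leading marker of the list, was at 7.66 and 12.2 CPM in wild type, against 16.5 and 12.7 CPM in knockout (log2 fold change 0.54, limma adjusted p = 0.999). Both knockout values were higher, though that of replicate 2 lay close to wild-type replicate 2. Klrb1b was lower in both knockout libraries, at 0.31 and 0 CPM, against 2.19 and 1.68 CPM in wild type. The NK receptor gene Klrb1c was highest in wild-type replicate 1, at 10.4 CPM, and at 1.26 to 5.51 CPM in the others. Ncr1, which encodes the defining NK receptor NKp46, was listed at 0 in wild-type replicate 1 and was at 2.10 CPM in wild-type replicate 2, against 1.84 and 1.27 CPM in knockout. The 2 CD8 markers summed to 7.11 and 9.25 CPM in wild type, against 6.13 and 5.08 CPM in knockout. Of 5 NKT and gamma-delta T cell markers, the 2 that were listed, Zbtb16 and Sox13, summed to 10.4 and 3.36 CPM in wild type, against 0.31 and 1.27 CPM in knockout. The part of these cells in the granule genes was not tested.

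Of the 26 genes listed for granzymes, perforin and granule machinery, 18 were tested and none passed by limma. Gzma, tested only through its knockout libraries, was the 1 gene with an unadjusted p under 0.05, beside 3.66% of all tested genes. The median log2 fold change was 0.02, with 10 values above 0. Serglycin, which packs granzymes in the granule, is encoded by Srgn and was at 288 and 410.3 CPM in wild type, against 382 and 329 CPM in knockout. Ctsc, the gene of the protease that activates granzymes, was at 111 and 121 CPM against 128 and 116 CPM. The smallest p after Gzma belonged to the cathepsin gene Ctsw (log2 fold change -0.36), to Cst7, which encodes the protease inhibitor cystatin F (-0.29), and to Unc13d, which encodes a priming factor of granule release (0.20). By contrast, granzymes C, D, E, F, G, K and M stayed at or below 3.39 CPM in every library.

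**Figure D3:**
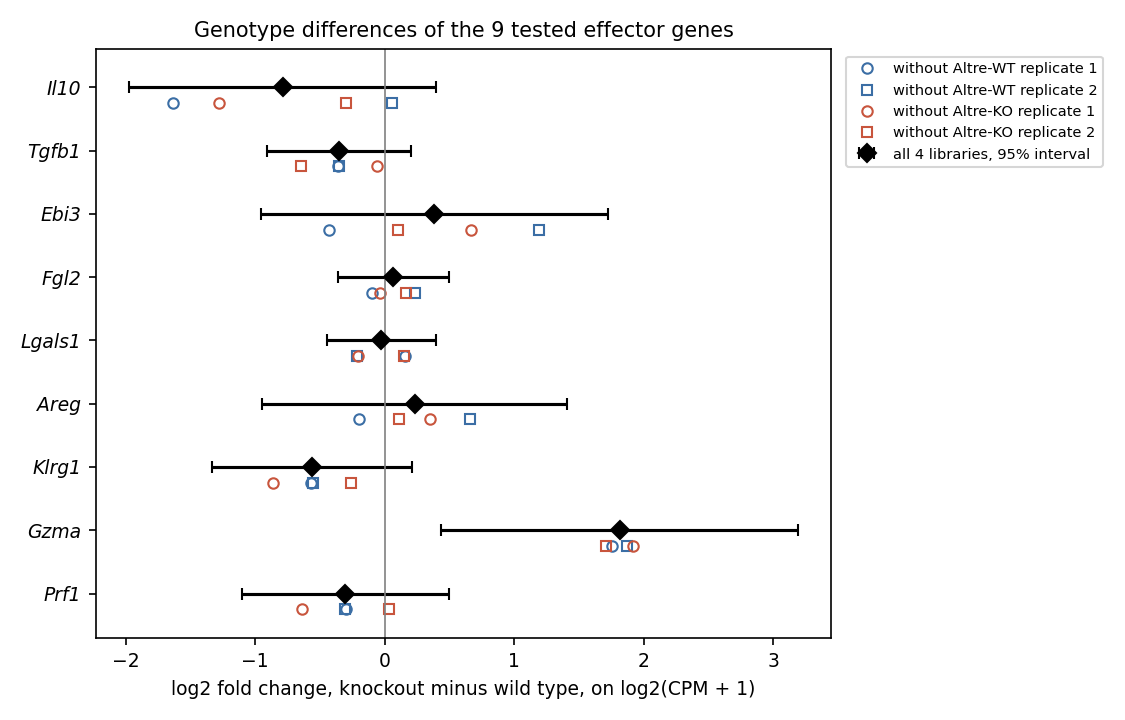
Log2 fold change (horizontal axis, knockout minus wild type, on log2(CPM + 1)) of the 9 tested effector genes. Black diamonds with bars are the fit on all 4 libraries with its 95% interval, and open symbols the value without each library in turn. The interval of Gzma (0.44 to 3.19) lies above 0, but Gzma was tested only through its knockout libraries, which built in that direction. The intervals of the other 8 genes include 0, and Il10 runs from -1.63 to 0.058 depending on the library left out.

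The list of 16 other suppressive molecules of Tregs was tested in full. None passed by limma, and 1, the costimulatory receptor gene Icos, had an unadjusted p under 0.05, beside 3.66% of all tested genes. There were 12 values below 0, and the median log2 fold change was -0.10. The value for Icos was -0.40 (95% interval -0.75 to -0.048, limma adjusted p = 0.999), the inhibitory receptor gene Tigit -0.58 (-1.20 to 0.038) and the semaphorin receptor gene Nrp1 -0.25 (-0.55 to 0.055). The genes of the adenosine-producing pair of ectoenzymes, Entpd1 and Nt5e, had values of 0.06 and -0.13. Ctla4, the checkpoint receptor that strips costimulatory ligands from dendritic cells, was at 366 and 411 CPM in wild type, against 389 and 329 CPM in knockout.

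Over all 8 lists, 84 of 115 genes were tested, counting each gene once, and 0 passed by limma in either direction. An unadjusted p under 0.05 was found for 2 of the 84, beside 3.66% of all tested genes. Values below 0 numbered 58 and values above 0 numbered 26, while over all 10486 tested genes 5466 lay below 0 and 5020 above. The median log2 fold change of the list genes was -0.06, beside -0.01 over all tested genes. The genotypes did not overlap for 23 of the 84, beside 30.8% of all tested genes.

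**Figure D4:**
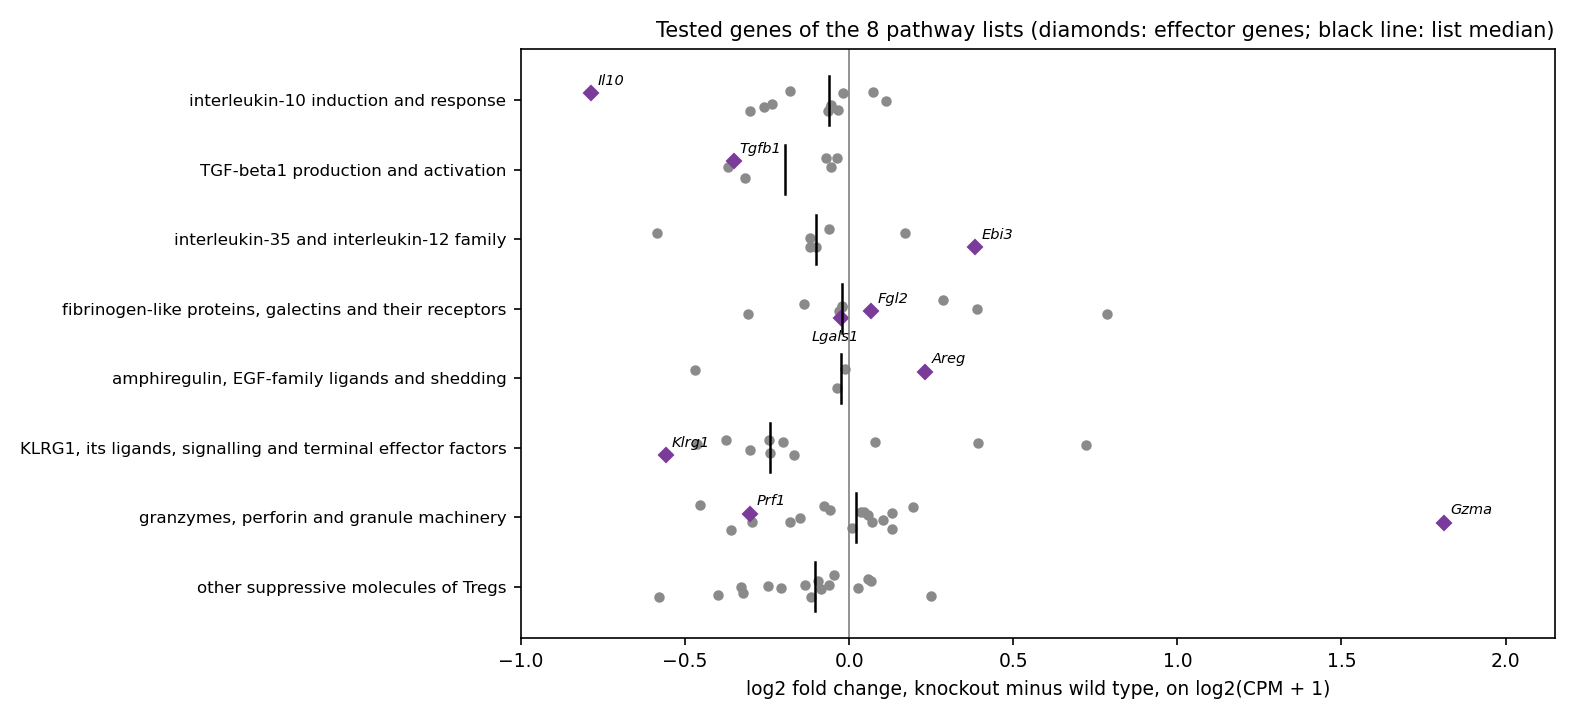
Log2 fold change (horizontal axis, knockout minus wild type, on log2(CPM + 1)) of the tested genes in each of the 8 pathway lists (rows), with effector genes as named diamonds, other genes as grey points and list medians as black lines. List medians lie between -0.24 and 0.02, and Gzma, at 1.81, is the point farthest from 0.

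The authors' deposited table gave each of the 10 genes an adjusted p of 1. Its log2 fold changes of CPM means were 2.50 for Gzma, -1.06 for Il10, -0.77 for Gzmb and -0.56 for Klrg1, with p-values of 0.625, 0.453, 1 and 0.607, and the headers name no test. In the authors' deposited table the other 6 genes had log2 fold changes between -0.33 (Tgfb1) and 0.23 (Ebi3).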

How the data were processed

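RNA sequencing of liver Tregs comprised 2 Altre-WT and 2 Altre-KO libraries. The submitters' processing notes list mm10 and the tools cutadapt, STAR and DESeq2; their roles and versions, the counter and the annotation are not stated in them. The deposited table holds RPM with an added 0.0001 (unit read from the values), CPM per the file headers, and the authors' mean CPM signal per genotype, log2 fold change, p-value and adjusted p-value.

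What 1 read is worth was taken from the most frequent RPM value above 0, refined over its whole multiples. Between 92.9% and 93.8% of values above 0 came out whole within 0.02 of a read, so the main fit did not treat values as counts. The estimated reads were used as counts for limma-voom, the counting intervals and the chi-square between replicates. All reads of the 10 effector genes came out whole. Replicate libraries were not duplicates: their estimated reads gave a chi-square per degree of freedom of 3.50 (wild type) and 10.3 (knockout).

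limma 3.58.1 (R 4.3.3) was run with a variance trend on log2(CPM + 1), with group as the only term, over 10486 genes with at least 4.22 CPM in 2 libraries, at an adjusted p (Benjamini-Hochberg) of 0.05. With 2 residual and 20.8 prior degrees of freedom, SEs rest largely on the trend over all genes. The fit was also run on simulated data with a spread shared by all genes and both genotypes, unlike the real libraries. No result given here is drawn from that run. Counting intervals are exact 95% intervals and cover counting error only.

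The effector genes and lists were chosen with earlier results of these data known. In each list, the 3 tested genes with the smallest p beside the effector genes are named; other list genes were named after their values were seen. Marker lists not described in the text were B cell (27.5 to 38.3 CPM summed), dendritic cell (13.7 and 21.4 in wild type; 10.7 and 6.36 in knockout, without overlap), hepatocyte (27.3 to 44.7, nearly all Trf), sinusoidal endothelium (175.5 to 224, nearly all Pecam1; Stab2 was at 6.02 and 5.04 in wild type and 0.92 and 1.27 in knockout, not past the threshold) and stellate cell and cholangiocyte (16.0 to 24.1, led by Epcam). Symbols were matched to GENCODE M21, and similar transcripts were searched with blastn 2.17.0 (at least 95% identity over 100 bases).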

Additional observations from a re-analysis of the deposited data

How the results depend on the processing

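No effector gene and no gene of the 8 lists passed under any of the 12 alternatives run. Over all genes, those past the threshold numbered 4, all lower in knockout; with a pseudocount of 0.1 CPM they were 2, both lower. Leaving out each library in turn gave 6 to 16 genes in all, 0 to 11 higher (11 without wild-type replicate 2) and 4 to 14 lower (14 without knockout replicate 2); the lone library of a genotype was then assumed to vary like the other genotype. With the replicate number as a block, 6 genes passed, 1 of them higher in knockout. The numbers did not pair the libraries (correlation of deviations -0.010 across genes).

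Signs turned when libraries were left out for Il10 (-1.63 to 0.058), Ebi3 (-0.43 to 1.196), Fgl2 (-0.10 to 0.24, with -0.033 without knockout replicate 1), Lgals1 (-0.21 to 0.16), Areg (-0.19 to 0.66) and Prf1 (-0.64 to 0.036). The sign of Lgals1 also turned with median-of-ratios size factors (0.0038) and limma-voom (0.0036). Tgfb1, Klrg1 and Gzma kept theirs under every alternative that tested them; a mean of at least 20 CPM left only Tgfb1, Fgl2 and Lgals1 tested. No scaling moved the median of all genes by more than 0.030. The length used for levels, chosen after seeing the data, moved Tgfb1 alone beyond its spread (17.7 CPM per kb). For genes under 20 reads per library, depth limits what can be seen: the interval of Ebi3 spanned -0.95 to 1.72.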

Other observations

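Granzyme M, encoded by Gzmm, had 0 and 1 estimated reads in wild type (listed at 0 and at 0.42 CPM), against 8 and 8 reads in knockout (2.45 and 3.39 CPM). It stayed below the level for testing and was singled out after its values were seen. Granzyme C, encoded by Gzmc, had 1 and 7 reads in wild type, against 1 and 0 in knockout, so wild-type replicate 2 alone stood apart.

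Of 31 list genes below the level for testing, 7 were listed at 0 in wild-type replicate 1 only (Ltbp4, Fcgr2b, Ereg, Btc, Egf, Cdh2 and Gzmm), 5 in knockout replicate 1 only (Tgfb2, Ltbp1, Thbs1, Tgfa and Epgn), 1 in knockout replicate 2 only (Gzmc) and 0 in wild-type replicate 2 only. These are 22.6%, 16.1%, 3.23% and 0% of the 31. Over all 8926 genes below that level and above 0 in any library, the shares were 4.69%, 9.37%, 5.10% and 2.92% in the same order. The 31 include genes at 0 in all 4 libraries, such as Il12a and Egfr, which the 8926 leave out, so the shares have unlike bases.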
